A study of Homo sapiens with 6 samples.

Results

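The RUNX transcription factors and the proteins that work with them on DNA were examined as a list of 8 genes. The list was chosen by name and role with earlier results of these data known, so counts among its members are descriptions. It holds RUNX1 and RUNX2, their shared partner CBFB, the ETO-family corepressors RUNX1T1, CBFA2T2 and CBFA2T3, and the Groucho-family corepressors TLE1 and TLE3. Of these, 7 were among the 19198 genes of the expression table and all 7 were among the 16988 genes tested. CBFA2T3 and the third RUNX factor, RUNX3, were not analysed here. RNA-Seq had been done on 6 samples of MCF10A, an established, non-tumorigenic human mammary epithelial cell line, to profile gene expression when growth factors are withdrawn. All samples were grown in medium with 5% horse serum, 3 of them with 10 µg/ml insulin, 20 ng/ml EGF, 100 ng/ml cholera toxin and 0.5 µg/ml hydrocortisone (control) and 3 with none of these 4 additions (growth factor-depleted). The day of RNA harvest is not stated for these samples, and 1 cell line was studied. The labels number 3 replicates per condition without saying whether they were separate cultures, so p-values measure only the spread between these samples, which may be technical. The design note of the series speaks of 2 replicates and 6 samples in total, and the labels, which list 3 in each condition, were followed for every n given here.

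RUNX proteins bind DNA through the Runt domain, and CBFB, which does not contact DNA itself, stabilizes that binding. The bound complex can activate or repress a gene depending on which coactivators or corepressors it recruits, with ETO-family and Groucho/TLE proteins acting on the repressive side. RUNX1 is best known as a regulator of blood cell formation and is also expressed in gland epithelium, while RUNX2 is required for bone formation.

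Values are normalized counts, that is, reads per gene divided by a size factor that evens out sequencing depth between samples, and they are not scaled to gene length. The reads behind them could be worked out exactly and came to between 7472418 and 28672630 reads on genes per sample, so that a floor of 3 reads corresponds to between 1.76 and 6.71 normalized counts. A gene was called changed at a Benjamini-Hochberg adjusted p under 0.05 over all 16988 genes and a change of at least 2-fold, by limma on log2(normalized count + 1), and fold changes are on that scale. All intervals for fold changes are 95% intervals from limma. By that rule 741 genes were called higher and 335 lower without growth factors.

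Some libraries stood apart before any comparison of conditions. Across 13035 genes, the deviation of control replicate 3 from each gene's mean rose with transcript length (Spearman rho 0.37), that of depleted replicate 2 did so less (0.22), and that of control replicate 2 fell with it (-0.36). Trends with GC content were of similar size, at -0.32 in control replicate 1, 0.22 in depleted replicate 1 and 0.20 in depleted replicate 3. Depleted replicate 1 held 610 normalized counts of CDH1, the E-cadherin gene, against 13118 to 20039 in the other 5 samples. The counts of called markers that follow stand beside 4.36% of all genes called higher and 1.97% called lower. All 10 basal epithelial markers had reads in every sample, but 3 of the 10 were called lower without growth factors and 0 higher, among them TP63 (mean 748 to 38.5 normalized counts) and DSG3 (23610 to 979). KRT5 measured 562 in depleted replicate 1 and 10908 to 38503 in the other 5 samples. KRT17 ran the other way without being called, from a mean of 10576 to 68033, with every depleted sample above every control sample. KRT14 also had a positive log2 fold change (2.69), with overlap between conditions. The summed level of the 10 basal markers overlapped, at 106197 to 154910 normalized counts in control and 56621.5 to 184599 in depleted samples. Of 10 luminal markers 9 were tested, with 0 called higher and 1 lower. Among 10 fibroblast markers all were in the table, 7 of the 9 tested were called higher and 0 lower without growth factors, and their summed level ran from 936 to 2129 normalized counts in control and from 25289 to 47271 in depleted samples. Of that list LUM was at 0 in control replicate 2 and THY1 at 0 in control replicates 1 and 2. Of 10 blood-cell markers, 4 were in the table and 0 of the 2 tested were called, while 1 of 3 tested endothelial markers, CDH5, was called higher. The parts that library trends and cell-type markers play in the results for the RUNX genes were not tested unless a value is given beside them. In bulk RNA, a change in the number of cells that express a gene cannot be told apart from a change in its RNA per cell.

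RUNX2 and RUNX1T1 were the only members called, both higher without growth factors, and RUNX1 showed no change that exceeded the spread between replicates. The 2 calls among 7 members stand beside 4.36% of all genes called higher, and 0 members were called lower, beside 1.97% of all genes. The median log2 fold change of the 7 was -0.07, and that of all genes tested was -0.03. For the same 2 genes the 3 depleted samples all lay above the 3 control samples (13.5% of all genes did so), and below for 1, TLE3 (12.1% of all genes). Every gene in the table has at least 3 reads in 3 or more samples. RUNX1T1 had 0 reads in all 3 control samples, so its separation follows from that condition and is not a separate result.

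**Figure D1:**
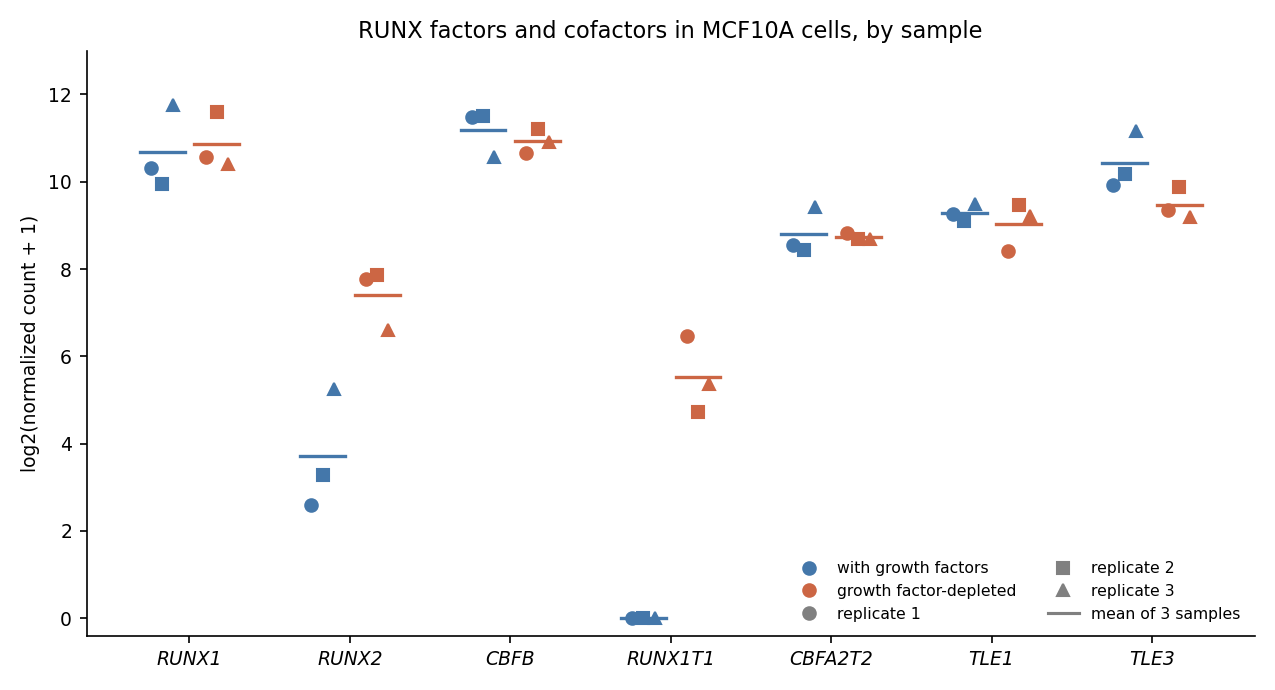
Levels of the 7 genes in each of the 6 samples, as log2(normalized count + 1), with symbols for replicates and a bar for the mean of 3 samples. RUNX2 and RUNX1T1 were higher in every depleted sample than in any control sample, TLE3 was lower in every depleted sample, and the other 4 genes overlapped between conditions.

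RUNX1 (ENSG00000159216, GRCh38 chromosome 21, 34787801 to 36004667, minus strand) is the RUNX factor of blood formation and the more abundant one in these cells. It measured 1279.6, 985 and 3471 normalized counts in control replicates 1, 2 and 3. Without growth factors it measured 1507, 3093 and 1362. The high samples were control replicate 3 and depleted replicate 2, 1 in each condition, and the conditions overlapped over almost their whole range. The means were 1912 ± 1358 (SD, n = 3) in control and 1988 ± 961 (SD, n = 3) in depleted cells. The log2 fold change was 0.18 (SE 0.52, interval -1.0 to 1.36), with a limma adjusted p of 0.898. That interval reaches from a level about 0.499 times the control to 2.57 times, so it includes a 2-fold change in either direction. The smallest change in RUNX1 that these replicates could detect was not tested. Without control replicate 3 the log2 fold change was 0.72 (limma adjusted p 0.245), and without control replicate 2 or depleted replicate 2 it was -0.19 in both fits. The same 2 libraries carried the positive trends with transcript length given above. After each sample was corrected for transcript length and GC content, RUNX1 measured 1394, 1196 and 3186 in control and 1407, 2761 and 1346 in depleted samples, so control replicate 3 and depleted replicate 2 were still the highest of their groups.

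RUNX2 (ENSG00000124813, chromosome 6, 45328157 to 45664349, plus strand), the factor of bone formation, was measured at few reads with growth factors and at many more without them. It measured 5.01, 8.79 and 37.4 normalized counts in control replicates 1 to 3, from 4, 15 and 38 reads. In the depleted replicates it measured 217, 232 and 96.1, from 237, 354 and 43 reads. The lowest depleted sample was still above the highest control sample, control replicate 3. The means were 17.1 ± 17.7 (SD, n = 3) and 182 ± 74.5 (SD, n = 3). The log2 fold change was 3.70 (SE 0.75, interval 1.99 to 5.41), with a limma adjusted p of 0.0237. On the recovered reads, edgeR's quasi-likelihood test gave an adjusted p of 0.0451 and DESeq2 gave 9.1e-05. The call was kept in 1 of the 6 fits that each left out 1 library, the one without control replicate 3, where the log2 fold change was 4.47 (limma adjusted p 0.00449). In the other 5 fits the log2 fold change stayed between 3.13 and 4.10 and the limma adjusted p was between 0.0516 and 0.112, the highest of them without depleted replicate 2. Without depleted replicate 1, in which CDH1 was low, it was 3.52 (limma adjusted p 0.0692).

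RUNX2 is transcribed from a distal and a proximal start, which give proteins with different first residues, and counts per gene do not separate them. The RefSeq promoter table on GRCh38.p14 holds a window of 250 bases before each start for 6 of the 8 members, among them 2 for RUNX2 and 1 for RUNX1. The windows were searched on both strands for the RUNX core motif as TGTGGT (reverse complement ACCACA) or TGCGGT (reverse complement ACCGCA), and 16.3% of 34943 promoter windows of the same length held either form, 1.64% of them at least 2 times. The window before the distal RUNX2 start, chr6:45328080-45328329 on the plus strand, held 2 copies of ACCACA, beginning 191 and 87 bases before the start. The stretch of it that lies outside every annotated exon and the second copy with 10 bases on each side, which falls in the first exon of a longer RUNX2 transcript, are given here with the window of RUNX1, since RUNX1 and RUNX2 are the motif-binding members and moved differently. Capitals mark the motif.
RUNX2 distal start, first copy, chr6:45328080-45328156 (+): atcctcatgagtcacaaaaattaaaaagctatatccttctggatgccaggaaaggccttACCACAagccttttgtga
RUNX2 distal start, second copy, chr6:45328233-45328258 (+): gaggtcacaaACCACAtgattctgcc
RUNX1, chr21:34888700-34888949 (-): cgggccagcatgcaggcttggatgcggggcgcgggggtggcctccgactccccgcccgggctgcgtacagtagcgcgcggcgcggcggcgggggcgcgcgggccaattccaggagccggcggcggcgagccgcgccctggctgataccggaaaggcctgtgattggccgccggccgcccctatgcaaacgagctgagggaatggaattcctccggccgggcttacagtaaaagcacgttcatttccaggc
The RUNX1 window held neither form of the motif and was rich in CpG, with 32 CpG dinucleotides and 71.2% G and C. It lies inside the annotated gene, which runs to 36004667 on the minus strand, so any RUNX1 start further upstream was not searched. The window before the proximal RUNX2 start, chr6:45422025-45422274, likewise held neither form, with 34 CpG dinucleotides and 78% G and C. The distal RUNX2 window had 0 CpG dinucleotides and 41.6% G and C, where the median over all windows was 11 CpG dinucleotides and 58% G and C. A TLE3 window, chr15:70094790-70095039 on the minus strand, held TGTGGT beginning 42 bases before the start. The other TLE3 windows and those of TLE1 and CBFA2T2 held neither form. These matches describe the letters of the windows only.

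The RUNX2 locus is shared with other genes. SUPT3H, which encodes a subunit of the SAGA-type acetyltransferase complexes, overlaps it on the opposite strand. SUPT3H measured 27.6, 34.6 and 43.3 normalized counts in control and 109, 77.4 and 80.5 in depleted samples. Every depleted sample was higher, but the gene was not called (log2 fold change 1.32, limma adjusted p 0.129). A second opposite-strand gene, the long noncoding RNA ENSG00000271857, had at most 13.7 normalized counts in any sample and fell under the filter for testing. The libraries were strand-specific, but the strand setting of the counting is not given in the sources used here, so reads where these genes overlap cannot be told apart. Near RUNX1, 0 of 4 genes that overlap it or lie within 100 kb were called, beside 6.33% of all genes. Their log2 fold changes ran from -0.93 to 0.20.

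Set against each other per kilobase of exon, the make-up of RUNX transcripts shifted. RUNX2 was 0.739%, 1.67% and 2.01% of the sum of RUNX1 and RUNX2 in control replicates 1 to 3, and 21.5%, 12.5% and 11.8% in depleted replicates 1 to 3. RUNX1 therefore exceeded RUNX2 by 134, 58.9 and 48.8 times per kilobase in control and by 3.66, 7.01 and 7.45 times in depleted samples. The shares did not overlap between conditions, and RUNX1 stayed the more abundant factor in all 6 samples. As a share of reads, not corrected for length, RUNX2 took 0.390% (exact 95% binomial interval 0.106% to 0.996%), 0.884% (0.496% to 1.45%) and 1.07% (0.755% to 1.46%) in control. The same share was 12.6% (11.1% to 14.2%), 6.98% (6.29% to 7.72%) and 6.60% (4.81% to 8.78%) in depleted samples. These intervals treat each read of a library as an independent draw, so they cover counting error only and not the spread between replicates. Reads carry no molecular identifiers, so copies of 1 molecule were counted separately. No control interval overlapped a depleted interval.

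CBFB (ENSG00000067955, chromosome 16, 67028984 to 67101058, plus strand), the common partner subunit, was the most abundant member per kilobase in both conditions. It measured 2880.0, 2925 and 1504 normalized counts in control and 1607, 2379 and 1927 in depleted samples. Control replicate 3 was the lowest sample of all and the other 2 control samples the highest, so the groups overlapped. The log2 fold change was -0.26 (SE 0.34, interval -1.04 to 0.52), with a limma adjusted p of 0.743. Per kilobase, CBFB exceeded the sum of RUNX1 and RUNX2 by 7.48, 9.78 and 1.42 times in control and by 2.80, 2.25 and 4.18 times in depleted samples. The lowest and the highest of these ratios were both in control samples, the lowest in control replicate 3, where RUNX1 was at its highest. With the longest transcript as the length these ratios were 5.20, 6.82 and 0.993 in control and 2.10, 1.63 and 3.02 in depleted samples, so that CBFB no longer exceeded the sum in control replicate 3. Of 14 genes within 100 kb of CBFB, 13 were tested and 2 were called, beside 6.33% of all genes called in either direction. B3GNT9, a glycosyltransferase gene, rose (log2 fold change 1.42, limma adjusted p 0.0266) and ELMO3, of the ELMO family of engulfment and motility regulators, fell from 985, 1121 and 1329 normalized counts to 81.5, 214 and 288 (log2 fold change -2.72, limma adjusted p 0.0117). The call of B3GNT9 was lost in 5 of the 6 fits without 1 library and that of ELMO3 in 0.

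**Figure D2:**
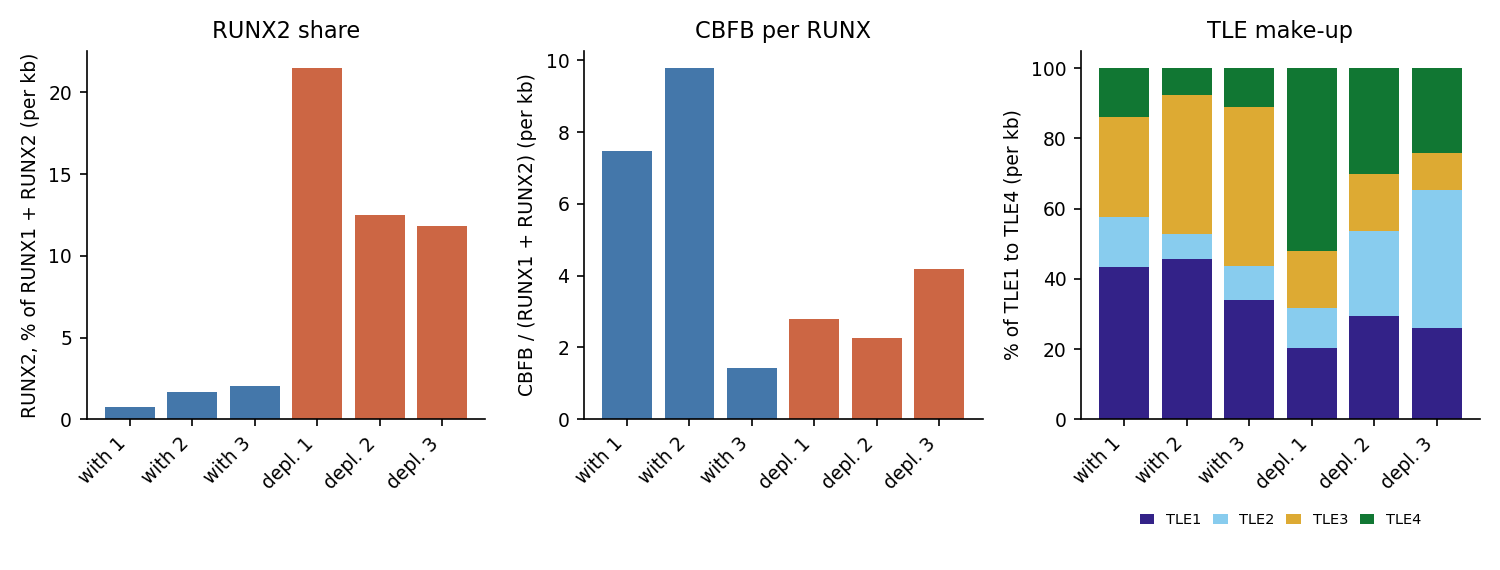
Per-sample composition from levels per kilobase of exon: RUNX2 as a percent of RUNX1 plus RUNX2 (left), CBFB divided by the sum of RUNX1 and RUNX2 (middle) and the percent of each of TLE1 to TLE4 in their sum (right), for 3 samples with growth factors and 3 depleted samples. The RUNX2 share is at most 2.01% with growth factors and at least 11.8% without, the CBFB ratio overlaps, and the TLE4 share is higher and the TLE3 share lower in every depleted sample.

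Among the ETO-family corepressors, RUNX1T1 appeared and CBFA2T2 was level. RUNX1T1 (ENSG00000079102, chromosome 8, 91954972 to 92103286, minus strand) encodes ETO, known as the partner fused to RUNX1 in acute myeloid leukemia, where the fusion joins the RUNX1 DNA-binding domain to this corepressor. It had 0 reads in all 3 control samples, which allows up to 3 reads in each, or 1.76 to 3.76 normalized counts. In depleted replicates 1 to 3 it measured 87.9, 25.6 and 40.2 normalized counts, from 96, 39 and 18 reads. It passed the filters on low counts through its depleted samples alone. Against the floor of 3 reads in each control library the depleted mean of 51.2 ± 32.6 (SD, n = 3) was at least 18.1-fold higher. The limma adjusted p was 0.0037, and the gene kept its call in all 6 fits with 1 library removed, with adjusted p-values from 0.00502 to 0.0245. Without depleted replicate 1, its highest sample, the limma adjusted p was 0.0133. RUNX1T1 was nevertheless the least abundant member in both conditions, at 3.79 normalized counts per kilobase in depleted cells.

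CBFA2T2 (ENSG00000078699, chromosome 20, 33490075 to 33650036, plus strand), also known as MTGR1, measured 375, 345 and 687 normalized counts in control. It measured 451, 413 and 409 in depleted samples, all 3 of them inside the control range. The log2 fold change was -0.07 (SE 0.34, interval -0.85 to 0.70), with a limma adjusted p of 0.942, and without control replicate 3, its highest sample, it was 0.24. Per kilobase, RUNX1T1 was 0% of the sum of RUNX1T1 and CBFA2T2 in every control sample and 12.0%, 4.15% and 6.43% in the depleted samples. CBFA2T2 thus supplied most of the measured ETO-family RNA in both conditions. None of the 6 genes tested within 100 kb of CBFA2T2 was called, 0 in either direction, beside 6.33% of all genes. Their log2 fold changes ran from -1.25 to 0.38.

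**Figure D3:**
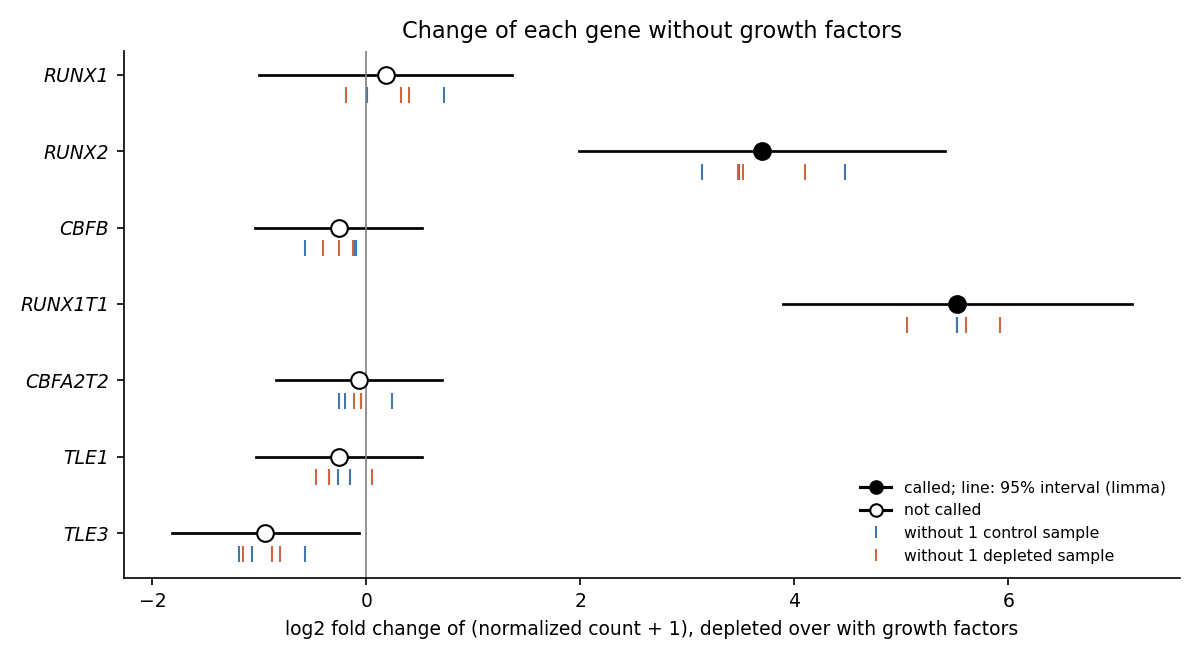
Log2 fold change of (normalized count + 1) in depleted over control cells for the 7 genes, with the 95% interval from limma (line), filled points for called genes and short ticks for the fold change when 1 sample is left out. RUNX2 and RUNX1T1 lie far to the right in every fit, TLE3 stays below 0, and the ticks of RUNX1, CBFA2T2 and TLE1 fall on both sides of 0.

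Of the Groucho-family corepressors, which RUNX proteins bind through a short motif at their C-terminal end, TLE3 ran lower without growth factors without passing the threshold and TLE1 did not separate. TLE3 (ENSG00000140332, chromosome 15, 70047790 to 70098176, minus strand) measured 973, 1151 and 2293 normalized counts in control. It measured 648, 945 and 586 in depleted samples, each below the lowest control sample. The log2 fold change was -0.94 (SE 0.38, interval -1.82 to -0.07), with an unadjusted limma p of 0.037 and an adjusted p of 0.209. Control replicate 3 was the highest sample, and without it the log2 fold change was -0.57 (limma adjusted p 0.208). With the correction for transcript length and GC content, an alternative chosen after the data had been seen, the log2 fold change was -1.25 and the gene was called (limma adjusted p 0.030). TLE1 (ENSG00000196781, chromosome 9, 81583683 to 81689547, minus strand) measured 615, 552 and 722 normalized counts in control and 341, 706 and 597 in depleted samples. Its lowest value was in depleted replicate 1 and the other samples overlapped. The log2 fold change was -0.26 (SE 0.34, interval -1.03 to 0.52), with a limma adjusted p of 0.746, and without depleted replicate 1 it was 0.05.

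The other 4 TLE genes all had positive log2 fold changes, with a median of 1.18, where that of all genes tested was -0.03. Of the 4, 1 was called higher and 0 lower, beside 4.36% and 1.97% of all genes. The called gene was TLE4, a Groucho corepressor like TLE1 and TLE3, which measured 310, 145 and 371 normalized counts in control. It measured 1372, 1145 and 874 in depleted samples, all far above the control samples (log2 fold change 2.12, SE 0.40, limma adjusted p 0.0187). Its call was lost without depleted replicate 1, 2 or 3, with limma adjusted p-values up to 0.0837. TLE5, a short relative that lacks the C-terminal repeat domain of the others, had the highest mean of the 4, at 3654, 3427 and 2349 normalized counts in control and 4102, 4493 and 6384 in depleted samples, and was not called (limma adjusted p 0.295). Per kilobase, TLE4 was 13.9%, 7.64% and 11.1% of the sum of TLE1 to TLE4 in control and 52.0%, 30.2% and 24.1% in depleted samples. TLE3 went the other way, from 28.6%, 39.7% and 45.1% to 16.1%, 16.3% and 10.6%. TLE1 was 43.5%, 45.7% and 34.1% of that sum in control and 20.4%, 29.3% and 25.9% in depleted samples, also without overlap. The leading TLE gene differed between depleted samples, with TLE4 first in replicates 1 and 2 and TLE2 first in replicate 3, at 39.5%.

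On levels per kilobase, the members had nearly the same order in both conditions. In control cells CBFB was first with a mean of 524 normalized counts per kilobase, above RUNX1 (123), TLE1 (120) and TLE3 (117), whose ranges overlapped one another. CBFA2T2 (49.6), RUNX2 (2.08) and RUNX1T1 (0) followed, each below the range of the gene before it. In depleted cells CBFB was again first (424), followed by RUNX1 (128), TLE1 (104), TLE3 (57.6) and CBFA2T2 (44.9), the last 4 of which each overlapped the next in order. RUNX2 (22.2) and RUNX1T1 (3.79) came last, again without overlap. Taking the longest transcript as the length put TLE3 before TLE1 in control cells and left the rest of the order as it was, but moved the levels themselves. RUNX1 was then at 263 in control and 273 in depleted cells and TLE3 at 189 and 93.0, and in depleted cells RUNX1 no longer overlapped TLE1, nor TLE3 CBFA2T2. Ranked per kilobase among the 16988 genes tested, RUNX2 went from the 4.0 to the 25.3 percentile. RUNX1 was at the 62.6 and 65.1 percentiles and CBFB at the 91.2 and 89.6 percentiles.

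Genes whose products work with RUNX proteins, modify them or target them for degradation had 2 called genes in 3 lists, beside 6.33% of all genes called in either direction. Among 12 subunits of the NCoR/SMRT, SIN3 and CoREST corepressor complexes and their deacetylases, 0 were called higher and 1 lower, with a median log2 fold change of -0.05. The called gene was RCOR1, the CoREST scaffold, which fell from 2043, 2026 and 2344 normalized counts to 1131, 1087 and 894 (log2 fold change -1.05, limma adjusted p 0.0472). This call was kept in 6 of 18 alternatives and in 0 of the 6 fits without 1 library, and edgeR gave an adjusted p of 0.0617. TBL1XR1, a subunit of the NCoR/SMRT complex, had the highest mean of that list and overlapped between conditions (log2 fold change 0.11). None of 8 coactivators and modifying enzymes was called (0 by limma, 0 of them at an unadjusted p under 0.05, and 0 by edgeR or DESeq2), with a median of -0.14. Of all 16988 genes tested, 3400 had an unadjusted limma p under 0.05. HIPK2, a kinase that phosphorylates RUNX1 and its coactivators, had the highest mean of the list, at 4102, 2712 and 6571 normalized counts in control and 4057, 1775 and 836 in depleted samples, with overlap between conditions (log2 fold change -1.20, limma adjusted p 0.296). Among 9 enzymes that target RUNX proteins for degradation, 1 was called higher and 0 lower, with a median of -0.22. SMURF2, a ubiquitin ligase with the highest mean of the list, rose from 1182, 1228 and 1321 normalized counts to 2919, 2616 and 2656 (log2 fold change 1.13, limma adjusted p 0.0302), a call kept in 10 of 18 alternatives and in 1 of the 6 fits without 1 library. SMURF1, the related ligase, measured 1896, 1909 and 2153 in control and 1297, 1669 and 1737 in depleted samples and was not called (limma adjusted p 0.523).

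Regulators and partners of RUNX2 other than those above had 12 of 14 genes in the table and tested, with a median log2 fold change of 0.32. Of the 12, 0 were called by limma, beside 6.33% of all genes called in either direction. An unadjusted limma p under 0.05 was found for 3 of the 12, beside 3400 of all 16988 genes tested. DESeq2 called 1 of the 12 and edgeR 0. SMAD5, which carries BMP signals, had the highest mean and a log2 fold change of -0.07. TWIST2, a basic helix-loop-helix factor known to bind the RUNX2 Runt domain, was the highest of the list in fold change and missed the threshold (37.6, 93.7 and 55.1 normalized counts in control, 438, 183 and 188 in depleted samples, log2 fold change 2.07, limma adjusted p 0.052).

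Genes known as RUNX2 targets in bone and cartilage included called genes in both directions, of which the rises held in every fit and the falls did not. Of 17 on the list, 8 were in the table and tested. Of these, 3 were called higher and 2 lower, beside 4.36% and 1.97% of all genes. The median log2 fold change of the 8 was 2.98, where that of all genes tested was -0.03. COL10A1, the collagen of hypertrophic cartilage, had 0 reads in all control samples and 65.9, 319 and 230 normalized counts in depleted samples, at least 72.7-fold higher against the floor of 3 reads. It passed the filters on low counts through its depleted samples alone, and the list's median covers only genes that passed them. COL1A2 rose from 138, 35.7 and 19.7 normalized counts to 13005, 5971 and 4248 (log2 fold change 7.19, limma adjusted p 0.0012). COL1A1 rose as well (log2 fold change 4.4, limma adjusted p 0.0044), and both type I collagen genes also belong to the fibroblast markers, of which 7 of 9 tested were called higher. The genes called lower were PHEX, a peptidase gene of phosphate balance (log2 fold change -1.89, limma adjusted p 0.0268), and LGALS3, which encodes galectin-3 (8329, 6049 and 4901 normalized counts in control and 2634, 2248 and 2943 in depleted samples, log2 fold change -1.27, limma adjusted p 0.0471). VEGFA, the vascular growth factor gene, had the highest mean of the list and overlapped between conditions, at 3247, 3695 and 7521 normalized counts in control and 3757, 5904 and 4128 in depleted samples (log2 fold change 0.0070). COL10A1, COL1A1 and COL1A2 kept their calls in all 18 alternatives, while PHEX kept its call in 11 and LGALS3 in 9, and each of these lost it in 5 of the 6 fits without 1 library. The other 9 genes on the list, among them SPP1, BGLAP and ALPL, were not analysed here.

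Genes known as RUNX1 targets in blood cells had 6 of 17 in the table and 4 tested. Of the 4, 1 was called higher and 0 lower, beside 4.36% and 1.97% of all genes. The called gene was MYL9, a regulatory myosin light chain of contractile cells and platelets, which rose from 17.5, 14.6 and 12.8 normalized counts to 3089, 7261 and 12944 (log2 fold change 8.70, limma adjusted p 0.000324). It is not restricted to blood cells. Genes tied to RUNX1 in mammary epithelium had 3 of 4 tested. Of the 3, 0 were called by limma, beside 6.33% of all genes, 0 by edgeR and 1 by DESeq2. An unadjusted limma p under 0.05 was found for 1 of the 3, beside 3400 of all 16988 genes tested. The gene under 0.05 was ESR1, the estrogen receptor gene, at 206, 181 and 63.9 normalized counts in control and 4.58, 32.8 and 24.6 in depleted samples, each of them below every control sample (log2 fold change -2.99, limma adjusted p 0.0632). CDH1, with the highest mean of that list, measured 20039, 13132 and 12961 normalized counts in control and 610, 13234 and 13118 in depleted samples. Depleted replicate 1 was the single low sample, and the other 5 overlapped (log2 fold change -1.67, limma adjusted p 0.448).

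**Figure D4:**
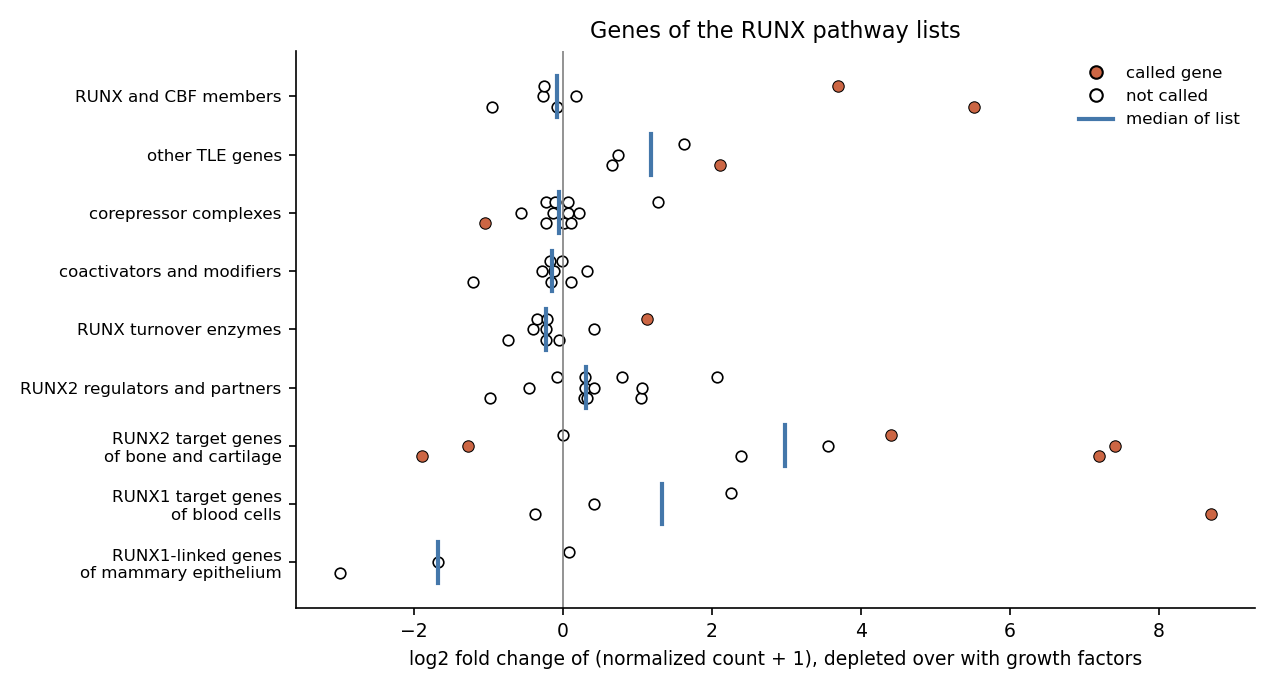
Log2 fold change of (normalized count + 1) in depleted over control cells for each tested gene of the 9 RUNX-related lists, 1 row per list, with filled points for called genes and a vertical bar for the list's median. The medians of the lists of corepressor complexes, coactivators and turnover enzymes lie between -0.22 and -0.05, and that of bone and cartilage target genes is 2.98, with called genes on both sides of 0.

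Genes picked for a profile near that of RUNX1 over the 6 samples were, like RUNX1, not called. Likeness was the root mean square difference between log2(normalized count + 1) profiles, each centred on its own mean, among 11687 genes whose mean reached 100 normalized counts. The nearest were PRDM2 (difference 0.13), ODF2L (0.14), BCL2L11 (0.16), MBTD1 (0.17) and ZNF292 (0.19), and 0 of these 5 were called. PRDM2, a zinc finger methyltransferase gene, measured 338, 339 and 999 normalized counts in control and 492, 875 and 429 in depleted samples. All 5 were highest in control replicate 3 and second highest in depleted replicate 2, the 2 samples in which RUNX1 was highest. The nearest profiles to RUNX2 were looser, among 11688 genes. They included ENO2 (difference 0.38), NRG1 (0.42), EFEMP2 (0.45) and CLTCL1 (0.45), and these 4 were called higher without growth factors. Over the 6 fits without 1 library, EFEMP2 kept its call in 6, CLTCL1 in 4, ENO2 in 3 and NRG1 in 1. NRG1, which encodes the ErbB-receptor ligand neuregulin, measured 10.0, 22.8 and 84.6 normalized counts in control and 708, 301 and 255 in depleted samples. ENO2, which encodes a neuronal form of the glycolytic enzyme enolase, measured 7.52, 16.99 and 43.3 in control and 278, 198 and 172 in depleted samples. Like RUNX2, these 4 genes were highest among control samples in replicate 3. These genes were picked for closeness over the same 6 samples, so their calls and their highest samples follow from that choice and are not separate results. The 6 samples also share libraries and depth across genes, so these likenesses are descriptions.

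**Figure D5:**
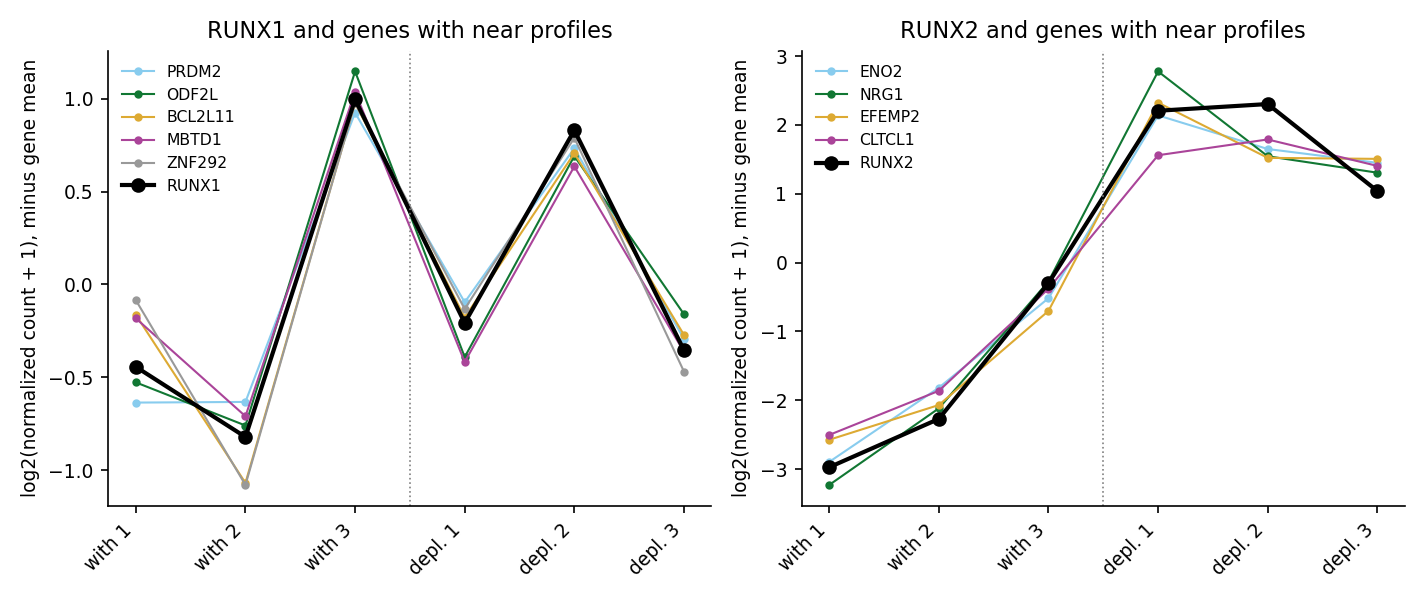
Log2(normalized count + 1) minus each gene's mean in the 6 samples, for RUNX1 (left) and RUNX2 (right) in black, with the 5 genes nearest to RUNX1 and 4 near RUNX2 in colour, with lines joining the values of 1 gene and a dotted line between conditions. RUNX1 and the genes near it peak in control replicate 3 and depleted replicate 2, while RUNX2 and the 4 genes near it are higher in all 3 depleted samples.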

How the data were processed

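RNA-Seq of 6 MCF10A samples, 3 per condition, was used, with groups and replicate numbers taken from the labels. The authors made strand-specific libraries from RNA depleted of ribosomal RNA, mapped single-end reads of 100 bases to hg38 with TopHat2, counted them on Gencode v22 with HTSeq and divided counts by DESeq2 size factors (version 1.8.1 per the labels). The deposited values are therefore a normalized signal (normalized counts), not raw counts. Whole reads were recovered from the steps between values (100% whole within 0.01 of a read), and 0 columns of values were left unmapped. The table's filter on genes with few reads is not described in the sources used here. All 19198 genes in it reach 3 reads in 3 or more samples. Names, coordinates and exon lengths came from Gencode v44 (18913 genes named), and promoter windows from RefSeq on GRCh38.p14.

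The main test was limma 3.58.1 in R 4.3.3, with eBayes and a trend, on log2(normalized count + 1) for genes with a mean of at least 10, two-sided, with Benjamini-Hochberg adjustment over all genes tested. With 3 samples against 3, exact permutation p-values go no lower than 0.1 and were not used. Alternatives were pseudocounts of 0.5 and 10, a mean of at least 50 or no filter, quantile normalization, equal totals, no trend, a replicate block, leaving out each sample, an adjusted p under 0.1, edgeR 4.0.16 and DESeq2 1.42.0 on recovered reads, and, added after seeing the data, a length and GC correction and edgeR with the block. Fits were tested on simulated data.

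Members and lists were chosen with earlier results of these data known, so their counts are descriptions. Named are every member, up to 4 called genes and the gene with the highest mean of each list, genes within 100 kb of a member, and the 5 nearest profiles of RUNX1 and RUNX2, of which 1 is not reported here; TWIST2, ESR1, SMURF1, LGALS3 and the markers printed were named after their values were seen. Tables used Python 3.11.15, pandas 2.3.3 and scipy 1.17.1, and figures matplotlib 3.10.9.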

Additional observations from a re-analysis of the deposited data

How the results depend on the processing

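The count of called genes, 1076, was 2112 with DESeq2 and 1706 at an adjusted p under 0.1, and ran from 453 to 2474 when 1 sample was left out, the highest without control replicate 3. The edgeR fit called 971 genes. The count of called members, 2, was 1 with a minimum mean of 50, which removed RUNX1T1 from testing, and from 1 to 2 when 1 sample was left out. RUNX2 kept its direction in all 18 alternatives and its call in 13. The 5 in which it was lost each left out 1 sample, with log2 fold changes from 3.13 to 4.10; the sixth such fit, without control replicate 3, kept it at 4.47. RUNX1T1 kept its direction and call in the 17 alternatives that tested it. RUNX1 was called in 0 of 18 alternatives, and its log2 fold change changed sign to -0.19 without control replicate 2, -0.19 without depleted replicate 2 and -0.0071 with the length and GC correction; over samples left out it ran from -0.19 to 0.72. CBFA2T2 changed sign to 0.24 without control replicate 3 (samples left out: -0.26 to 0.24) and TLE1 to 0.053 without depleted replicate 1 (-0.47 to 0.053). TLE3 gained a call, at -1.25, with the length and GC correction, and CBFB kept its direction in 18 of 18 alternatives. The cause of these changes was not tested.

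Neither the labels nor the methods tie replicate numbers to a shared batch, so whether same-numbered samples were paired is not known. The correlations of deviations between same-numbered samples were -0.07, -0.28 and -0.32. Trends of single libraries enter these values, so they cannot decide the question. With the replicate block limma called 967 genes and edgeR 886, and both RUNX2 (limma adjusted p 0.0228) and RUNX1T1 (0.0055) were called with it, while RCOR1, SMURF2, PHEX, LGALS3 and B3GNT9 were not (limma adjusted p 0.0894 to 0.183). With 3 samples per condition, RUNX1 and CBFB intervals include 2-fold falls, and levels near the floor of 3 reads, such as RUNX2 in control replicate 1, rest on few reads.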
